A study of Mus musculus with 22 samples.

Results

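The genes described here are the D-type cyclins Ccnd1, Ccnd2 and Ccnd3, the E-type cyclins Ccne1 and Ccne2, the kinase gene Cdk6 and the CDK inhibitor genes Cdkn1b, Cdkn2a, Cdkn2b and Cdkn2c. They were chosen by symbol and make up 10 of the 18487 genes in the expression table, and all 10 passed the filter on low values, which kept 17275 genes. RNA had been measured in E14, a mouse embryonic stem cell line, in 11 groups of 2 libraries each. A compound that acts on chromatin had been given to 10 groups, and the group labelled NC, whose label names no compound, was the reference. The compounds were Bromosporine (a bromodomain inhibitor), Chaetocin (an inhibitor of histone lysine methyltransferases), CPTH2 and Garcinol (inhibitors of histone acetyltransferases), DZNep (an inhibitor of S-adenosylhomocysteine hydrolase that lowers methylation), IOX1 (an inhibitor of 2-oxoglutarate oxygenases), MS023 (an inhibitor of type I arginine methyltransferases), UNC0379 (an inhibitor of the methyltransferase SETD8), Valproate (a histone deacetylase inhibitor) and a compound labelled OICR, whose full name the label does not give. All groups were of the same line with no other labelled alteration. No dose or exposure time was labelled, so differences between compounds cannot be told apart from differences in dose or time.

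Entry into S phase is controlled by cyclins bound to kinases. D-type cyclins activate CDK4 and CDK6, E-type cyclins activate CDK2, and both phosphorylate the retinoblastoma protein, which then releases E2F transcription factors. Inhibitors of the Ink4 family, encoded by Cdkn2a, Cdkn2b and Cdkn2c, bind CDK4 and CDK6, and inhibitors of the Cip/Kip family, to which Cdkn1b belongs, bind cyclin E-CDK2. Mouse embryonic stem cells have a short G1 phase, and in many cell types the Cdkn2a and Cdkn2b locus is held silent by Polycomb proteins.

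All values are normalized read counts that the authors had brought to the same distribution in every library and rounded. The median was 409 in NC replicate 1, and the largest value of the 22 libraries was 221616. Between 1065 and 1707 genes were at 0 in a library. Totals lay between 38403767 and 38419709, so these totals do not show the depth reached by each library. Changes are given on the scale of log2(value + 1), and a gene was called when limma gave a Benjamini-Hochberg adjusted p under 0.05 and the fold change was over 2. The labels do not say that the 2 libraries of a group came from separate cultures, so the p-values measure only the spread between these libraries, which may be technical. The 8 embryonic stem cell markers summed to between 171573 and 274170 in the 22 libraries, and none was at 0. The summed markers of other cell types lay between 99 and 1938 for fibroblast feeders, 219 and 739 for primitive endoderm, 3289 and 6038 for trophoblast, 137 and 329 for mesoderm and 2755 and 6725 for neuroectoderm.

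Of the 100 pairs of member and compound, 4 were called against NC (4%), beside 2.15% of all pairs of tested gene and compound. Ccnd1 fell with Bromosporine, Cdkn1b fell with DZNep, and Ccnd2 and Cdkn2b rose with DZNep. With DZNep 3 of the 10 members were called, beside 11.4% of all tested genes, and with Bromosporine 1 of 10, beside 3.34% of all. In a further 5 pairs the adjusted p was under 0.05 but the difference was less than 2-fold. In all, 9 of the 100 pairs had an adjusted p under 0.05, beside 4.23% of all pairs. The 5 pairs were Cdkn2b with Bromosporine, OICR and Valproate, Ccnd3 with DZNep and Cdkn1b with Valproate. No member was called with Valproate, beside 5.28% of all genes, with MS023, beside 0.973%, or with OICR, beside 0.388%. None was called with IOX1 (0.116% of all genes), Chaetocin (0.0174%), CPTH2 (0.00579%), Garcinol (0.00579%) or UNC0379 (0%), compounds with few calls anywhere in the table. At an unadjusted p under 0.05, 3 of 10 members passed with Valproate, beside 24.1% of all genes. With each of the other compounds without a call 1 of 10 passed, beside 15% of all genes for MS023, 12.4% for IOX1, 10.7% for OICR, 6.08% for UNC0379, 4.72% for Chaetocin, 3.62% for Garcinol and 0.944% for CPTH2. The count of 4 calls was 1 without NC replicate 1, and 0 when each compound was fitted with NC alone.

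**Figure D1:**
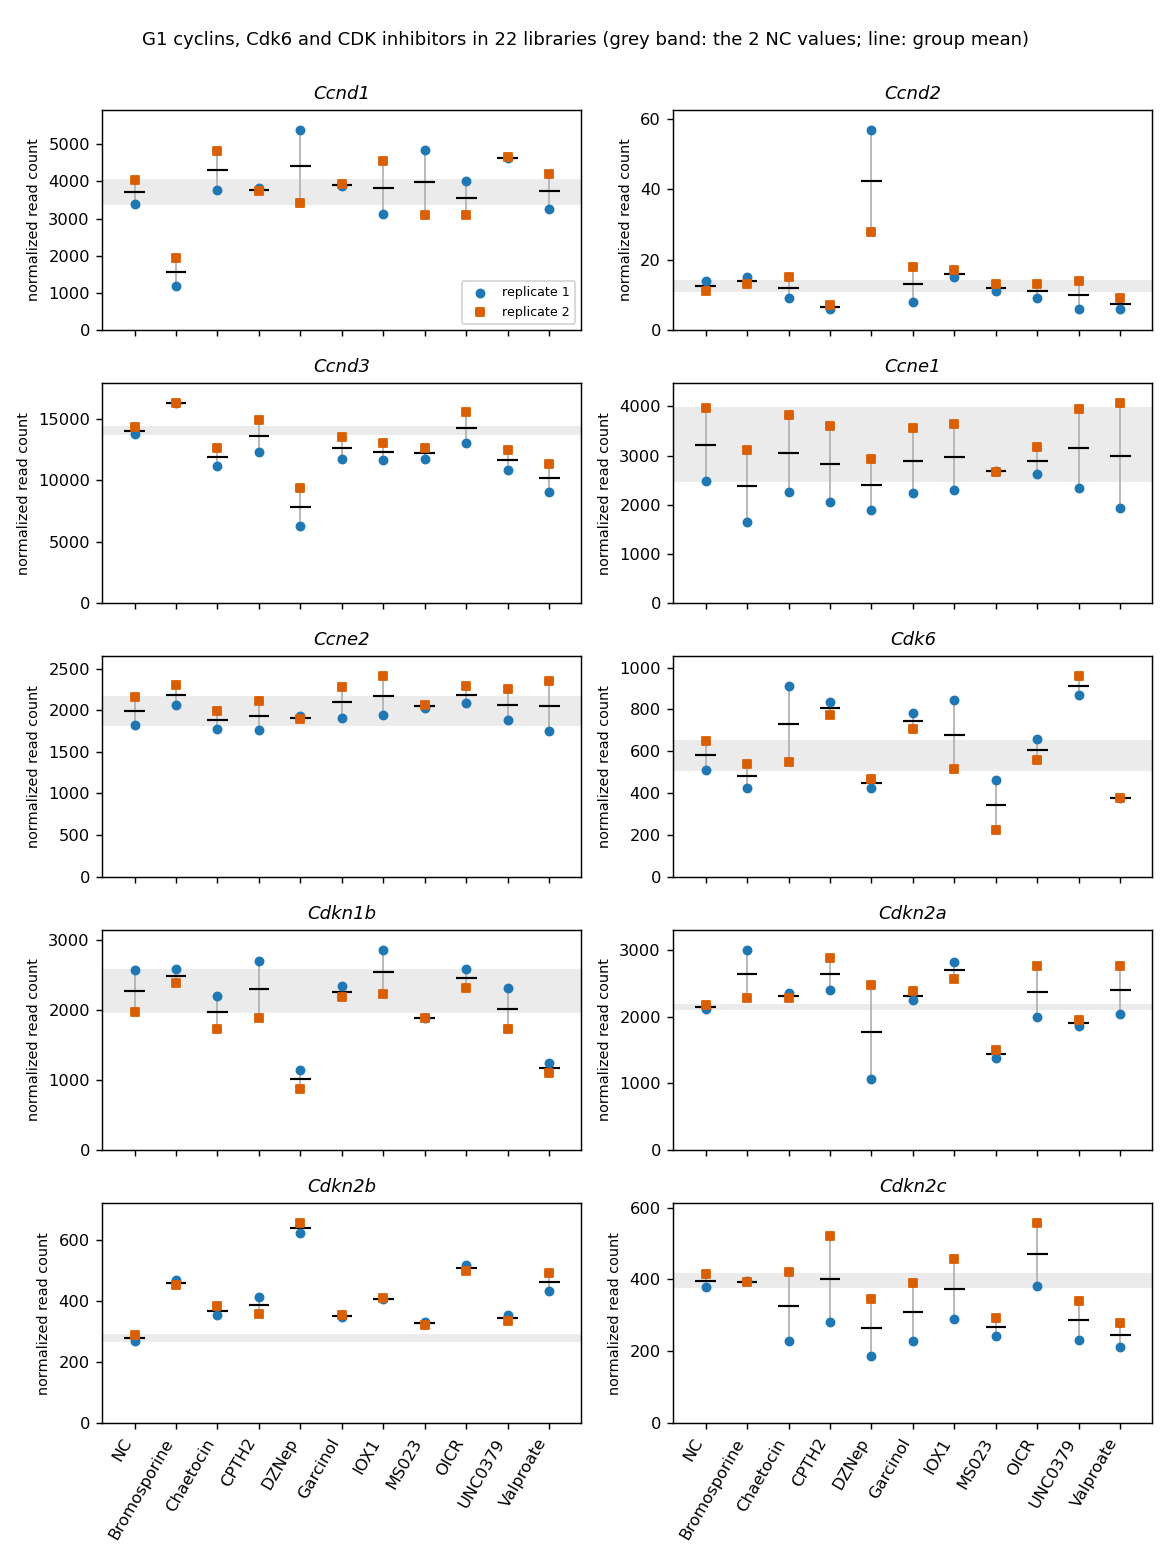
Normalized read counts (vertical axes, each from 0) of the 10 members in the 11 groups (horizontal axis). Points are libraries, the short line is the mean of the 2 libraries and the grey band spans both NC values. Ccnd1 was low with Bromosporine, Cdkn1b with DZNep and Valproate, and Cdkn2b lay above NC in all compound libraries. The share of all genes with that last pattern was not counted.

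**Figure D2:**
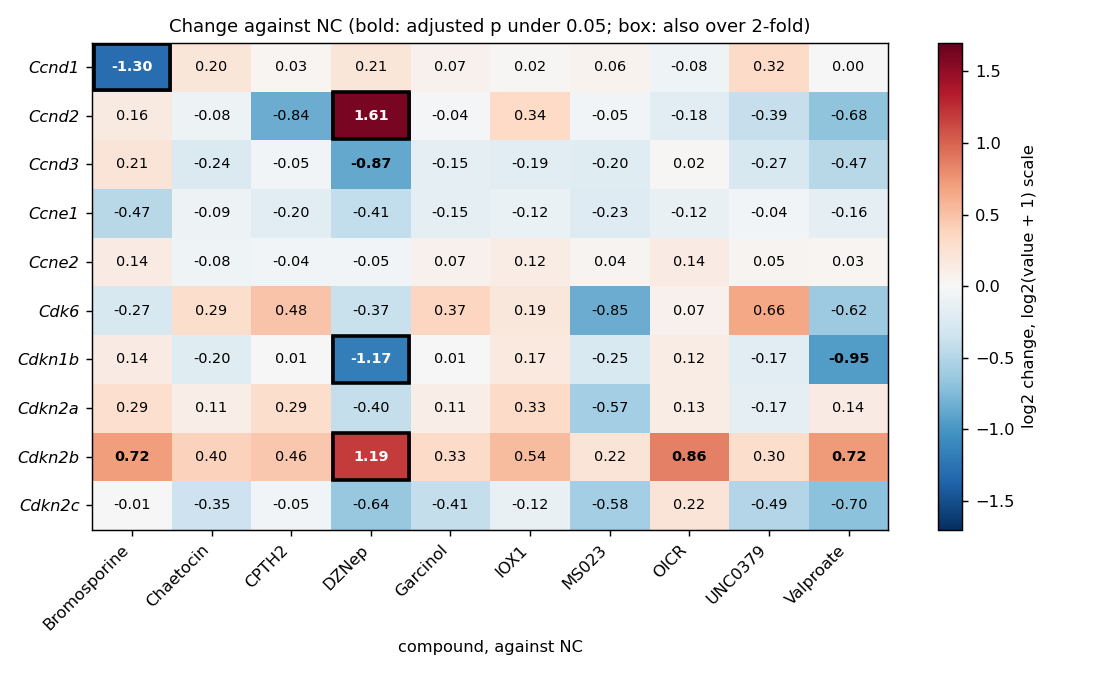
Log2 change against NC of each member (rows) with each compound (columns), on the log2(value + 1) scale, red for higher and blue for lower. Bold values have an adjusted p under 0.05 and the 4 boxed values are also over 2-fold: Ccnd1 with Bromosporine, and Ccnd2, Cdkn1b and Cdkn2b with DZNep.

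Ccnd1 encodes cyclin D1 and lies at chr7:144929931-144939925 (mm10, minus strand). The values were 3394 and 4050 with NC and 1177 and 1931 with Bromosporine. Both Bromosporine libraries lay below every other library of the series. The change was -1.30 (SE 0.29, 95% confidence interval -1.92 to -0.68), a 2.46-fold lower level with an adjusted p of 0.0194, and 2.77% of all genes were called lower with this compound. The call was lost without NC replicate 1 (adjusted p = 0.0814), without NC replicate 2 (adjusted p = 0.112) and without Bromosporine replicate 1 (adjusted p = 0.19), with changes of -1.43, -1.17 and -0.94. With DZNep the Ccnd1 values were 5395 and 3415, which span the NC values, and the change was 0.21 (interval -0.41 to 0.83). The other 8 compounds had changes between -0.08 with OICR and 0.32 with UNC0379, whose libraries held 4626 and 4650. Of the 31-base stretches of the longest coding Ccnd1 transcript, 28.1% also occur in the neighbour Lto1, which lies on the opposite strand, and whether the counting used strand is not stated. This neighbour is listed as Oraov1 in the table and held 402 and 475 with Bromosporine, against 299 and 404 with NC (change 0.33, adjusted p = 0.362).

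Ccnd2 encodes cyclin D2 and lies at chr6:127125162-127152193 (mm10, minus strand). It was listed near the bottom of the range, with 14 and 11 in the NC libraries. With DZNep it reached 57 and 28, the highest values of all 22 libraries, and the other 18 compound libraries held between 6 and 18. The change with DZNep was 1.61 (SE 0.52, interval 0.49 to 2.74), a 3.06-fold higher level with an adjusted p of 0.0387, and 5.27% of all genes were called higher with DZNep. The call was lost without either NC library (adjusted p = 0.109 without replicate 1 and 0.149 without replicate 2), without DZNep replicate 1 (change 1.11, adjusted p = 0.24) and with p-values adjusted over all 10 contrasts together (0.143). At values this low a fold change depends on a small number of counts. Of the 31-base stretches of Ccnd2, 5.46% also occur in Gm43126. Exons of Gm43126 and of 9330179D12Rik overlap Ccnd2 on the opposite strand, and their part in its values was not tested.

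Ccnd3 encodes cyclin D3 and lies at chr17:47505051-47599691 (mm10, plus strand). Its values were 13763 and 14325 in NC. The DZNep libraries held 6305 and 9361, of which the replicate 1 value is the lowest of the series. The change with DZNep was -0.87 (SE 0.18, interval -1.25 to -0.49, adjusted p = 0.00301), which is under 2-fold. With Valproate the values were 9073 and 11304, both below NC, as for 27.6% of all genes. The change of -0.47 did not pass (adjusted p = 0.114), but it did with the replicate number as a block in the limma model (adjusted p = 0.00726), still under 2-fold. Both libraries also lay below NC with Chaetocin, Garcinol, IOX1, MS023 and UNC0379, with changes between -0.27 and -0.15, and none passed. The shares of all genes with both libraries below NC were 20%, 17.4%, 24.2%, 23.6% and 17.6% for these compounds, in this order. Both Bromosporine libraries held 16296, a tie that the shared distribution can produce, and lay above all others. Of the stretches of Ccnd3, 29.6% also occur in other genes. The largest part, 15.5%, is shared with Bysl on the opposite strand, which held 4253 and 4858 with DZNep and 2677 and 3535 with NC (change 0.56, adjusted p = 0.155).

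To compare the levels of the 3 D-type cyclins, counts were divided by the length of the longest coding transcript. Per kilobase, Ccnd1 made up 12.2% and 13.8% of the summed D-type cyclin level in the NC libraries. With Bromosporine the Ccnd1 share was 3.92% and 6.27%, below all other libraries. With DZNep it was 32.5% and 17.1%, where the replicate 1 value was the highest of the series and the replicate 2 value lay within the range of the other compounds. The summed level per kilobase was 4435 and 5348 with DZNep, 7423 and 7864 with NC and 8029 and 8231 with Bromosporine. The Ccnd2 share was at most 0.203% in any library.

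**Figure D3:**
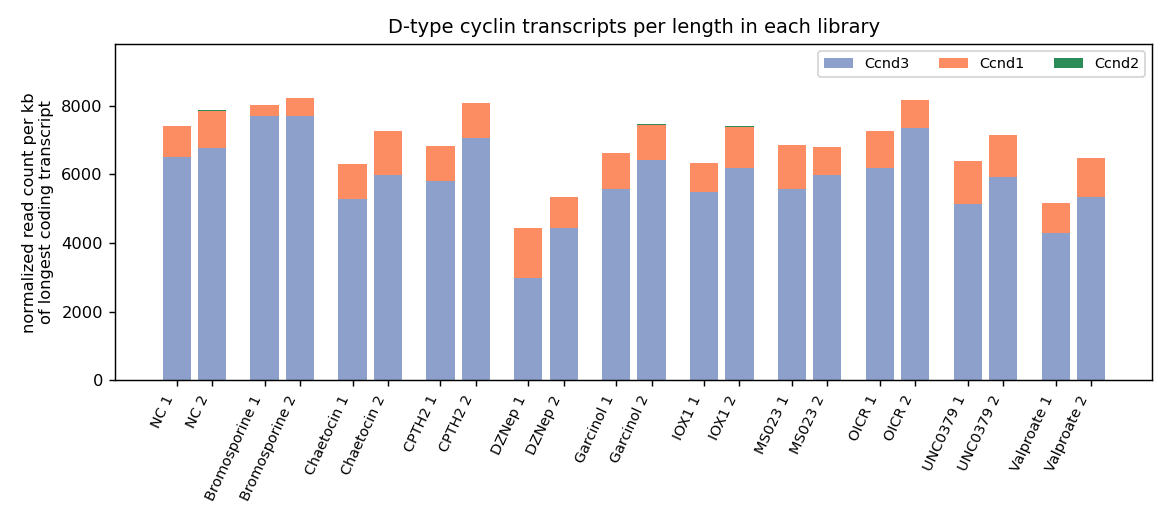
Normalized read count per kilobase of the longest coding transcript (vertical axis, from 0) of the 3 D-type cyclins, stacked, in each of the 22 libraries (horizontal axis, group and replicate number). Ccnd3 takes the larger part of each bar, and the Ccnd1 part is smallest in the Bromosporine libraries.

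Cdk6 encodes a kinase partner of the D-type cyclins and lies at chr5:3341485-3531008 (mm10, plus strand). The values were 512 and 649 in NC, and no compound was called. The lowest mean was with MS023, at 462 and 222, both below NC (change -0.85, interval -1.53 to -0.16, adjusted p = 0.213), followed by Valproate, at 377 and 375 (change -0.62, adjusted p = 0.259). Both libraries lay below NC for 23.6% of all genes with MS023 and 27.6% with Valproate. The highest mean was in the UNC0379 libraries, at 868 and 958 (change 0.66, interval -0.02 to 1.34, adjusted p = 0.844). Over all 11 groups Cdk6 passed the moderated F test (adjusted p = 0.028). Of the stretches of Cdk6, 3.77% also occur in other genes, 0.713% of them in Gm17590, which overlaps it on the opposite strand.

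Ccne1 and Ccne2 encode cyclins E1 and E2. Ccne1 lies at chr7:38097984-38107534 (minus strand) and Ccne2 at chr4:11191351-11204779 (plus strand, mm10). Ccne1 held 2475 and 3970 in NC, and its changes lay between -0.47 with Bromosporine and -0.04 with UNC0379, with adjusted p-values of 0.555 to 1. The intervals of Ccne1 reached from -1.46 to 0.95 in this fit, which leaves the shift between replicate numbers in the spread. With the replicate number as a block their lowest end was -0.88, which does not hold a 2-fold lower level. Ccne2 held 1826 and 2155 in NC and was the steadiest member. Its changes lay between -0.08 with Chaetocin and 0.14 with OICR, and its intervals stayed between -0.43 and 0.49. Ccne2 shares 18.6% of its stretches with Ints8 on the opposite strand, which had a small change of its own with DZNep (-0.32, adjusted p = 0.00899).

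Cdkn1b, which encodes the Cip/Kip inhibitor p27Kip1, and Cdkn2b, which encodes the Ink4 inhibitor p15Ink4b, were called with DZNep in opposite directions. The 250 bases before the start of each are shown because the members' 2 firmest calls belong to these genes. They were taken from RefSeq (GRCm38.p6), which matched 7 of the 10 members, and are written along the gene's strand. Capitals mark matches, on either strand, to CCAAT, to the GC box GGGCGG, to the cyclic AMP response element TGACGTCA, to the E2F motifs TTTCCCGC and TTTGGCGC and to the TATA motif TATAAA.
Cdkn1b, chr6:134920151-134920400, plus strand: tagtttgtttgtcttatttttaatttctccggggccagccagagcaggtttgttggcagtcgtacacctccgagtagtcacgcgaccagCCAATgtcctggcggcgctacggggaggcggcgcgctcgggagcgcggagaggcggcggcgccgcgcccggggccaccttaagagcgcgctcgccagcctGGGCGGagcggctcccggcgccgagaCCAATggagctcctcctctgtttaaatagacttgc
Cdkn2b, chr4:89311033-89311282, minus strand: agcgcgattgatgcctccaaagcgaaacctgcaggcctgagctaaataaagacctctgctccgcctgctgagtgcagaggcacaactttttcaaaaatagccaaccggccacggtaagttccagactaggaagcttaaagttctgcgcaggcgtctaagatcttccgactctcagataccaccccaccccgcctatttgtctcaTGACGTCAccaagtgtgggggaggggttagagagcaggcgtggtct
The Cdkn1b stretch holds 2 CCAAT matches and 1 GC box, and the Cdkn2b stretch holds 1 match to TGACGTCA. Of 32851 RefSeq promoter stretches of the same length, 33.9% hold CCAAT, 32.7% the GC box, 1.55% TGACGTCA, 1.3% an E2F motif and 12.4% TATAAA. A match is a description of the letters only.

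Cdkn1b lies at chr6:134920401-134925513 (mm10, plus strand). Its values were 2571 and 1976 in NC and 1145 and 875 with DZNep. Both DZNep libraries lay below all libraries other than those of Valproate. The change with DZNep was -1.17 (SE 0.21, interval -1.62 to -0.72), a 2.25-fold lower level with an adjusted p of 0.00146, and 6.14% of all genes were called lower with DZNep. Without NC replicate 1 or without DZNep replicate 2 the fold change was just under 2 (changes of -0.98 and -0.98). Cdkn1b was lower in replicate 2 in most groups, and leaving out 1 library leaves the replicate numbers unbalanced between the groups. Between libraries of the same number the changes with DZNep were -1.17 and -1.17. With the replicate number as a block in the limma model the SE was 0.11 and the adjusted p 1.01e-05. With Valproate the values were 1245 and 1095, also both below NC, as for 27.6% of all genes. The change was -0.95 (SE 0.21, interval -1.40 to -0.49, adjusted p = 0.0114), just under 2-fold. It was past 2-fold without NC replicate 2 (-1.14) or Valproate replicate 1 (-1.04), and under 2-fold without NC replicate 1 (-0.76) or Valproate replicate 2 (-0.86). Between libraries of the same number the changes with Valproate were -1.05 and -0.85, and with the block the adjusted p was 0.000123. The remaining 8 compounds had changes between -0.25 with MS023, where both libraries held 1890, and 0.17 with IOX1, and none passed.

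Cdkn2b lies at chr4:89306299-89311039 (mm10, minus strand) and shares no 31-base stretch with other genes. Its values were 271 and 290 in NC and 623 and 657 with DZNep, the highest of the series. The change with DZNep was 1.19 (SE 0.11, interval 0.95 to 1.42), a 2.28-fold higher level with an adjusted p of 1.37e-05. The call remained when each of the 4 libraries of the comparison was left out in turn. The NC libraries held the lowest Cdkn2b values of all 22. Every compound library therefore lay above both NC libraries, and the lowest were 333 and 322 with MS023 (change 0.22, interval -0.01 to 0.46). For a single compound, between 8.19% (CPTH2) and 26.5% (DZNep) of all genes had both libraries above NC. The share of all genes with every compound library above NC was not counted, so how unusual this pattern is remains unknown. OICR held 519 and 501 (change 0.86, adjusted p = 0.00397), Bromosporine 469 and 453 (change 0.72, adjusted p = 0.00251) and Valproate 434 and 493 (change 0.72, adjusted p = 0.0013), each under 2-fold. The 10 comparisons share the NC libraries, so these directions are not independent of each other. Set against the mean of the other 10 groups in place of NC, DZNep was higher by 0.73 (adjusted p = 2.48e-05), which is under 2-fold. By the same reference OICR differed by 0.37 (adjusted p = 0.0665), Valproate by 0.22 (adjusted p = 0.0756) and Bromosporine by 0.21 (adjusted p = 0.12), and none of these passed. Against NC, OICR also missed the adjusted p without OICR replicate 2 (0.0545).

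Cdkn2a lies on the same chromosome at chr4:89274471-89294653 (mm10, minus strand), 11645 bases from Cdkn2b. It encodes both p16Ink4a and, from a start 12427 bases further upstream, the p53 pathway protein p19Arf, and the table gives a single value for both. The values were 2115 and 2173 in NC. With DZNep they were 1061 and 2478, which lie on either side of NC (change -0.40, interval -1.03 to 0.23, adjusted p = 0.345). With MS023 both libraries lay below NC, at 1381 and 1502 (change -0.57, adjusted p = 0.392), as they did for 23.6% of all genes. No compound was called for Cdkn2a, and its neighbour Cdkn2b had a change of 0.22 with MS023.

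Cdkn2c, which encodes p18Ink4c and lies at chr4:109660876-109667189 (mm10, minus strand), held 380 and 414 in NC. The values were 186 and 346 with DZNep (change -0.64, adjusted p = 0.273) and 212 and 279 with Valproate (change -0.70, adjusted p = 0.304), all below NC. Both libraries lay below NC for 32.4% of all genes with DZNep and 27.6% with Valproate. Cdkn2c also lay below NC in both libraries with MS023 (242 and 292, change -0.58) and UNC0379 (232 and 341, change -0.49). The same held for 23.6% of all genes with MS023 and 17.6% with UNC0379. OICR had the highest mean, from 382 and 557. None was called, and the intervals of Cdkn2c reached from -1.58 to 1.09. With the replicate number as a block in the limma model, Cdkn2c passed the adjusted p with DZNep (0.0255) and Valproate (0.0261), still under 2-fold.

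Markers of other cell types also differed with DZNep, Valproate, Bromosporine and MS023, and their part in the member values was not tested. Beside the marker calls, 5.27% of all tested genes were called higher and 6.14% lower with DZNep. In either direction, 5.28% were called with Valproate, 3.34% with Bromosporine and 0.973% with MS023. With DZNep, 2 of 7 tested fibroblast feeder markers were called higher, with Col1a1 at 327 and 228 against 24 and 24 in NC and Thy1 at 66 and 64 against 12 and 11. The summed list was 1669 and 1938 with DZNep and 745 and 1476 with NC, and Lum and Dcn were at 0 in both groups. Pdgfrb went the other way without a call, at 57 and 64 with DZNep, 59 and 54 with Valproate and 217 and 108 with NC. With Valproate, Thy1 (358 and 303) and Lum (197 and 331) were called higher and the sum was 1613 and 1476, while with Bromosporine Col1a1 was called lower and the sum was 740 and 657. Some of these genes were high in 1 library of a group and at or near 0 in the other. Examples are Lum with CPTH2 (346 and 0), Postn with Valproate (658 and 0) and Col3a1 with NC (4 and 743). The feeder sums therefore depend on genes that vary between libraries of a group. With DZNep, 3 of 7 trophoblast markers were called higher, namely Eomes (356 and 199, NC 129 and 119), Gata3 (44 and 54, NC 0 and 9) and Krt8 (881 and 504, NC 140 and 411). The list summed to 4394 and 3680 with DZNep against 3747 and 3294 in NC. Of the trophoblast markers not called, Tfap2c (2745 and 2576, NC 3379 and 2712) had a lower mean with DZNep, and Cdx2, Krt7 and Hand1 had higher ones. Of 5 primitive endoderm markers, Dab2 (113 and 146, NC 41 and 46) and Pdgfra (120 and 85, NC 22 and 19) were called higher with DZNep and Gata4 (35 and 61, NC 156 and 154) lower, with sums of 467 and 739 against 454 and 364. Of 5 neuroectoderm markers, Sox1 (225 and 204, NC 742 and 514) and Nes (715 and 543, NC 1555 and 1613) were called lower with DZNep, with sums of 4837 and 5509 against 3696 and 5288. The others were not called. Tubb3 (3331 and 4333, NC 947 and 2771) and Otx2 (551 and 390, NC 404 and 338) had higher means with DZNep, and Pax6 (15 and 39, NC 48 and 52) a lower one. With Valproate Pdgfra was called higher (88 and 78, endoderm sum 417 and 554), and Sox1 (252 and 283) and Otx2 (82 and 206, NC 404 and 338) were called lower (neuroectoderm sum 3388 and 4692). No trophoblast marker was called with Valproate, but the trophoblast list summed to 5664 and 6038, against 3747 and 3294 in NC. With Bromosporine Eomes was called higher (331 and 298) and Hand1 (0 and 0, NC 9 and 4) lower (trophoblast sum 5629 and 4366), and with MS023 Sox1 was called lower (230 and 246). Of 8 embryonic stem cell markers 1 was called, Zfp42, which was higher with DZNep (49540 and 33822, NC 16469 and 20763). The embryonic stem cell markers summed to 265896 and 274170 with DZNep and 204835 and 205617 with NC. In bulk RNA a different share of cells of a type and a different level per cell cannot be told apart.

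Taken over all 11 groups, 5 of the 10 members passed the moderated F test at an adjusted p under 0.05, beside 29.7% of all tested genes. They were Cdkn2b (adjusted p = 0.000203), Cdkn1b (0.00264), Ccnd3 (0.0166), Ccnd1 (0.0268) and Cdk6 (0.028). Ccnd2, Cdkn2a, Cdkn2c, Ccne2 and Ccne1 had adjusted p-values of 0.0853, 0.223, 0.523, 0.925 and 0.995. When groups were ordered by their mean, neighbouring groups had values that did not overlap in 5 of 10 steps for Cdkn2b, beside 10.7% of the steps of all tested genes. DZNep was at the top, followed by OICR, then Valproate and Bromosporine, which overlapped, then IOX1, CPTH2, Chaetocin, Garcinol and UNC0379, which each overlapped their neighbours, then MS023 and NC. The Cdk6 and Cdkn2a orders had 2 such steps each, those of Ccnd1, Ccnd2, Ccnd3 and Cdkn1b had 1, and those of Ccne1, Ccne2 and Cdkn2c had none.

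Per kilobase of transcript, the mean NC level was highest for Ccnd3 at 6646, followed by Cdkn2a at 2396, Ccne1 at 1611, Ccnd1 at 995, Ccne2 at 662 and Cdkn1b at 499. Cdkn2b stood at 202, Cdkn2c at 161, Cdk6 at 50.4 and Ccnd2 at 1.97. These levels rest on the longest coding transcript of each gene, and the transcripts in use may be shorter.

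The 3 compounds with the largest numbers of called genes in the series were compared directly, without the NC libraries in the contrast. Of 30 pairs of member and contrast 6 were called. Between DZNep and Valproate, 1 of 10 members was called, beside 10.8% of all genes. This was Ccnd2, which was 4.90-fold higher with DZNep (change 2.29, SE 0.52, adjusted p = 0.00687), from 57 and 28 against 6 and 9, and the call was lost without DZNep replicate 1 (adjusted p = 0.0609) or Valproate replicate 1 (adjusted p = 0.0624). Cdkn2b was higher with DZNep than with Valproate by 0.47 (adjusted p = 0.00855), under 2-fold. Cdkn1b, low with both, differed by -0.22 (interval -0.68 to 0.23, adjusted p = 0.503), which leaves room for a moderate difference on either side.

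Between DZNep and Bromosporine 3 of 10 members were called, beside 14.8% of all genes. Ccnd1 was higher with DZNep by 1.51 (adjusted p = 0.00172), and Ccnd3 and Cdkn1b were lower by 1.08 and 1.31 on the log2 scale (changes of -1.08, adjusted p = 0.000566, and -1.31, adjusted p = 0.000528). The Ccnd3 change was under 2-fold without DZNep replicate 1 (-0.80). Between Bromosporine and Valproate 2 of 10 were called, beside 8.64% of all genes. Ccnd1 was lower with Bromosporine (change -1.30, adjusted p = 0.00913) and Cdkn1b was higher (change 1.09, adjusted p = 0.00434). The Ccnd1 call was lost without Bromosporine replicate 1 (adjusted p = 0.093) or Valproate replicate 2 (adjusted p = 0.0702), and the Cdkn1b fold change was just under 2 without Valproate replicate 2. For Cdkn2b the same contrast gave -0.01 (interval -0.24 to 0.23).

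Several members differed between the libraries numbered 1 and 2, across groups. In a model with group and number, 5 of 10 members had an adjusted p under 0.05, beside 52.6% of all genes, so the share among the members is near the background. None was over 2-fold, beside 4.04% of all genes. Ccne1 was higher in replicate 2 by 0.66 (SE 0.08, adjusted p = 5.89e-05), and in 10 of 11 groups. Cdkn2c was higher by 0.54 (adjusted p = 0.000352), Ccnd3 by 0.21 (adjusted p = 0.00194) and Ccne2 by 0.20 (adjusted p = 0.00111), each in 10 of 11 groups. Cdkn1b was lower in replicate 2 (-0.27, adjusted p = 0.000575), in every group except MS023, where the values were equal. Cdkn2b did not share this shift (0.01, interval -0.08 to 0.10). What the numbers stand for is not labelled. The shift of Ccne1 was larger in size than each of its changes against NC.

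**Figure D4:**
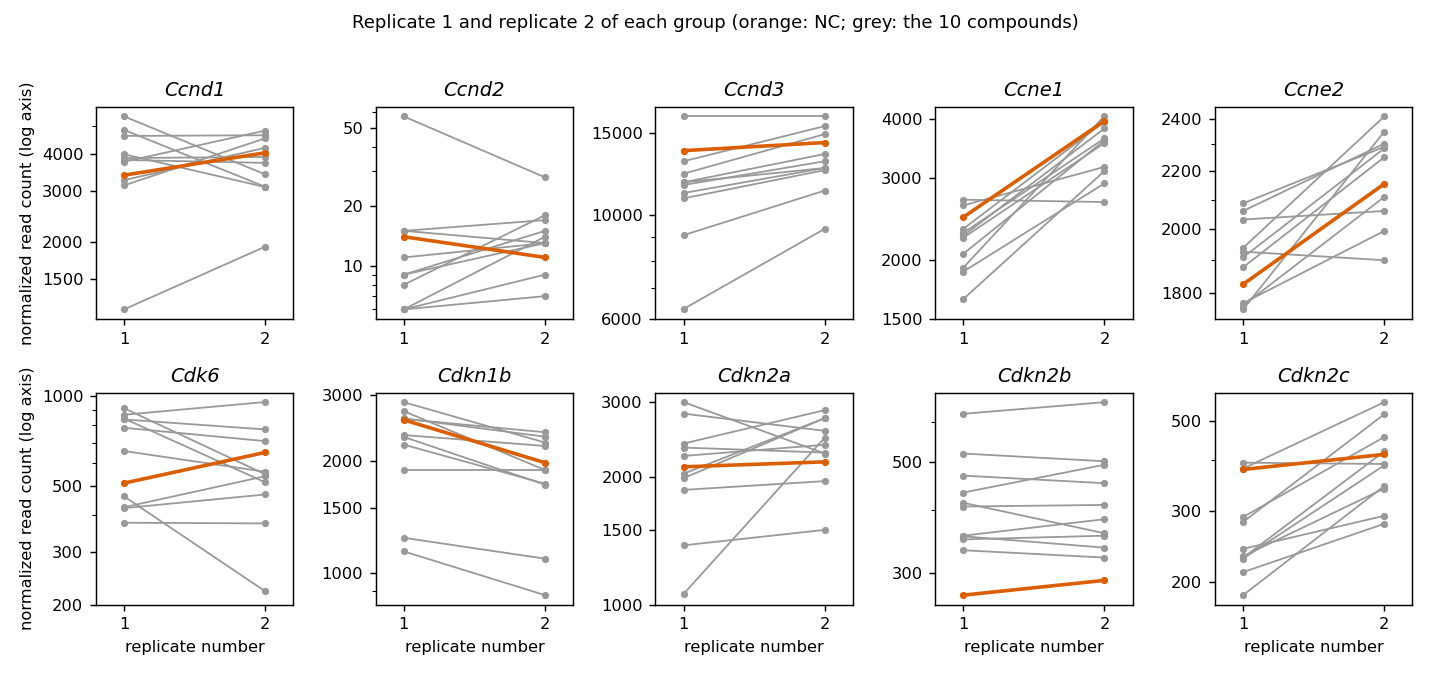
Normalized read counts (log axes) of each member in replicate 1 and replicate 2 of a group, joined by a line, with NC in orange and the 10 compounds in grey. Lines rise together for Ccne1 and Cdkn2c and fall for Cdkn1b, while Cdkn2b lines are nearly level.

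For the members called with a compound, the genes whose pattern was most alike were sought among 13715 genes, as Pearson's r over the 22 libraries after centring within replicate number. The libraries share groups and the largest responses weigh most, so these are descriptions. Ccnd1 was most like Gm11839 (r = 0.918), a processed pseudogene that shares 81.6% of its stretches with other genes and whose value is therefore uncertain, and Sulf1 (r = 0.867), a sulfatase of heparan sulfate. Sulf1 held 142 and 402 with Bromosporine and 878 and 995 with NC. Ccnd2 was most like Hnrnpm (r = 0.829), which encodes a splicing factor, and Mrps7 (r = 0.817), which encodes a mitochondrial ribosomal protein. Of their stretches, 29.2% of Hnrnpm and 11.7% of Mrps7 also occur in other genes. Ccnd2 held at most 18 outside the DZNep libraries, so these r values lean on its 57 and 28 with DZNep. Cdkn1b was most like the Wnt receptor gene Fzd7 (r = 0.937) and the transcription factor gene Tead4 (r = 0.934). Fzd7 held 316 and 243 with DZNep, 447 and 278 with Valproate and 1510 and 899 with NC. Cdkn2b was most like Dedd2 (r = 0.91), which held 1124 and 1325 with DZNep and 375 and 403 with NC, and Tmem261 (r = 0.904). Among the members themselves the highest r was 0.84, between Ccnd3 and Cdkn1b, and the lowest was -0.56, between Ccnd1 and Ccnd3.

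Of 51 other genes of the G1 network, in 6 lists, 6 of the 510 pairs of gene and compound were called (1.18%, beside 2.15% over all genes). In 5 of these the compound was DZNep and in 1 Valproate, and 4 were higher and 2 lower. Among 4 other CDK inhibitors, Cdkn1c, which encodes p57Kip2 of the same family as Cdkn1b, rose with DZNep to 354 and 456 from 56 and 82 in NC (change 2.55, SE 0.30, adjusted p = 7.16e-05). It shares 28.4% of its stretches with Gm44732 on the opposite strand. Cdkn1a, which encodes p21Cip1, held 8038 and 7963 with Valproate and 6054 and 5364 with NC (change 0.49, adjusted p = 0.00793), under 2-fold. Cdkn2d, which encodes p19Ink4d, held 647 and 688 with DZNep and 504 and 416 with NC (change 0.54, adjusted p = 0.0217), also under 2-fold.

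Among 8 kinases and other cyclins, Ccna1, encoding a cyclin known from germ cells, was called with DZNep at 113 and 162 against 63 and 71 (change 1.01, adjusted p = 0.0199). That call was lost without NC replicate 1 (adjusted p = 0.126), NC replicate 2 (adjusted p = 0.0524) or DZNep replicate 2 (adjusted p = 0.13). Cdk4, the other kinase partner of the D-type cyclins, held 18306 and 14685 with DZNep and 12545 and 14388 with NC (change 0.29, adjusted p = 0.125), and Cdk2 was not called with any compound. Among 13 pocket proteins and E2F factors, Rbl1, which encodes the retinoblastoma relative p107, fell with DZNep to 635 and 549 from 1241 and 1156 (change -1.02, adjusted p = 0.000215), and was just under 2-fold without NC replicate 1 (-0.97) or DZNep replicate 2 (-0.91). Rb1 held 853 and 766 with DZNep and 556 and 492 with NC (change 0.63, adjusted p = 0.0231), under 2-fold.

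Among 9 genes for the turnover of G1 regulators, Fbxw7, whose product targets cyclin E for degradation, rose with DZNep to 3200 and 2665 from 1068 and 1365 (change 1.27, adjusted p = 0.00352). Fbxo4, which encodes another F-box protein, fell with Valproate to 45 and 83 from 179 and 190 (change -1.58, adjusted p = 0.00371). Among 7 regulators of the Ink4/Arf locus and partners of Arf, Mdm2, which encodes the p53 ligase that p19Arf binds, rose with DZNep to 11537 and 7585 from 3393 and 3160 (change 1.51, adjusted p = 0.000749). None of the 10 E2F target genes was called with any compound in limma, and 4 of their 100 pairs with a compound had an unadjusted p under 0.05, beside 13.2% over all genes. The SE of these genes ran from 0.12 for Cdt1 to 0.56 for Mcm5 (20768 and 39324 in NC), so moderate changes in some of them could be missed. Their median change was -0.0021 with DZNep, -0.10 with Bromosporine and -0.19 with Valproate, beside medians over all genes of -0.04, 0.01 and -0.02. The 10 members had medians of -0.39 with DZNep, 0.14 with Bromosporine and -0.32 with Valproate.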

How the data were processed

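Poly(A)-selected RNA of E14 cells was sequenced in 22 libraries. Groups and replicate numbers came from the treatment labels and sample titles. The deposited values are scores: per the study's methods and labels, the authors aligned reads to mm10 (Bowtie2 2.2.5 and RSEM are named), normalized counts with EDASeq at its full setting, and rounded them. Which counting route gave the table is not given in the sources used here. The study's methods state a target depth for its RNA-seq as a whole, but what single libraries reached was not analysed here. Full-quantile normalization removes differences in total RNA and can make values tie between libraries. A further deposited table of group means was not used.

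Values were analysed as log2(value + 1) with limma 3.58.1 in R 4.3.3. Genes with at least 10 in at least 2 libraries were kept, 11 group means were fitted to all libraries (11 residual degrees of freedom), and variances were moderated with a trend. P-values are two-sided and Benjamini-Hochberg adjusted over all genes within a contrast. The fit was tested on simulated data. Positions came from GENCODE M21 and sequences from RefSeq, read with Python 3.11.15. The members, gene lists and tests were chosen with earlier results of these data known. Named outside the members were 6 preset genes (Cdk4, Cdk2, Cdkn1a, Cdkn1c, Cdkn2d and Rb1), called genes of each list (at most 3) and the 2 genes most like each called member. The latter were sought among tested genes above 0 in all 22 libraries with a group mean of at least 100. Neighbours that overlap a member, and cell type markers that were called, are named beside the values they touch.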

Additional observations from a re-analysis of the deposited data

How the results depend on the processing

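The alternatives were a pseudocount of 10, no filter, median-ratio rescaling, the mean of the other groups as reference, adjustment over all 10 contrasts, the replicate number as a block, a fit of only the groups compared, and each library left out in turn. The 4 member calls against NC fell to 0 when only the 2 groups compared were fitted, the 6 calls of other G1 genes to 3 and the 6 direct calls to 1. This fit has fewer samples and so fewer residual degrees of freedom. With 1 library left out, where the lone library of a group is assumed to vary like the other groups, the counts ranged from 1 to 5 for members against NC (1 without NC replicate 1), from 4 to 8 for other G1 genes (4 without NC replicate 1 or DZNep replicate 2), from 4 to 6 for the F test, from 4 to 9 for the direct contrasts (4 without DZNep replicate 1 or Valproate replicate 2) and from 0 to 0 for the replicate number. For the 16 single results that were called, 128 of 164 alternatives kept the call and 36 lost it. For the 10 that were not called, 67 of 70 alternatives left them uncalled and 3 made a call, and 0 alternatives reversed a direction. Of the 5 pairs under 2-fold, adjusted p under 0.05 was lost in 2 of 11 alternatives by Cdkn2b with Bromosporine and with Valproate, in 3 by Cdkn2b with OICR and by Cdkn1b with Valproate, and in 1 by Ccnd3 with DZNep. Among the 3 new calls, Ccnd3 with DZNep was past 2-fold without DZNep replicate 2. Of the other G1 genes, the calls of Cdkn1c, Fbxw7 and Mdm2 with DZNep were kept in all 11 alternatives each, that of Ccna1 was lost in 6, that of Rbl1 in 4 and that of Fbxo4 in 1.

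With the replicate block the counts were 4 for members against NC, 6 for other G1 genes, 7 for the F test and 7 for the direct contrasts. The shares of all tested genes that pass with the block were not computed. These counts, and the pairs named next, are therefore not read as a result about the members. Without passing 2-fold, Ccnd3 with Valproate (adjusted p = 0.00726), Cdkn2c with DZNep (0.0255) and Valproate (0.0261) and Cdkn2b with IOX1 (0.0184) had adjusted p-values under 0.05 with the block and not in the fit without it, and the lower end of the Ccne1 intervals was -0.88. The numbers were not taken as pairs in the main fit, for which an r above 0.1 in every pair of groups was asked. Deviations of same-numbered libraries correlated with r between 0.0535 and 0.298 (median 0.196) over 55 pairs of groups, all above 0. The number shifted 52.6% of all genes, and the main fit leaves this shift in its spread. With the block the SE was 0.19 in place of 0.46 for Ccne1 and 0.21 in place of 0.41 for Cdkn2c. For Cdkn1b it was 0.11 in place of 0.21, and for Ccnd1 0.29 in both fits. For 13 of 22 libraries the best match had the same number.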
